A study of Mus musculus with 4 samples.

Results

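The comparison described here asks what a constitutively active Ikk2 (Ikk2-CA) adds to mouse blood progenitors that already carry Jak2 V617F. It sets the double-mutant library against the Jak2V617F library, 2 of the 4 droplet single-cell RNA libraries of the series. Barcodes were kept with 500 to 7500 detected genes and less than 10% of unique molecular identifiers (UMIs, counted molecules) from mitochondrial genes. That left 5268 double-mutant and 14156 Jak2V617F cells, together 19424 of the 37344 kept cells of all 4 libraries. UMIs were summed per gene over the kept cells of each library and given as CPM, the UMIs of a gene per 1e6 UMIs of its library. Genes that reached 10 CPM in at least 1 of the libraries, 8247 in all, were compared.

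Both libraries came from sorted LSK cells (Lin-Sca-1+Kit+), a bone marrow gate in which blood stem cells and the earliest progenitors lie, pooled from 5 mice aged 8 to 12 weeks. The Jak2V617F mice were labelled Vav1-iCre/+, Jak2 V617F flox/+. The double mutants carried Ikk2-CA flox/+ in addition. Libraries of Vav1-iCre/+ controls and of Vav1-iCre/+, Ikk2-CA flox/+ mice (Ikk2CA) serve as the same step without Jak2 V617F. All 4 genotypes shared Vav1-iCre, which acts in blood-forming cells, and the series' design text describes an EGFP reporter of NF-κB crossed into the mice and Kit+ bead enrichment before the sort. Ikk2-CA carries S177E and S181E and is expressed from R26 after a stop cassette is removed. Each genotype is 1 pooled library, so no difference between animals could be measured, no test across libraries was made and no p-value is given. Intervals are 95% and cover counting error only.

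IKK2, encoded by Ikbkb, phosphorylates the inhibitor IκBα so that it is degraded and NF-κB dimers of RELA, REL and p50 enter the nucleus, where they switch on chemokines, survival genes and their own inhibitors. RELB and p52, the products of Relb and Nfkb2, act in the slower non-canonical branch and their genes are themselves NF-κB targets. JAK2 carries the signal of the erythropoietin receptor and other cytokine receptors to STAT5, and the V617F form, found in myeloproliferative neoplasms, signals without ligand.

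Promoter stretches with a match to the κB consensus, the binding sequence of NF-κB, are shown for the 6 genes at least 2 times as high in the double mutant that had one (Nfkbia, Nfkb2, Ltb, Pdcd1lg2, Tnip3 and Tnfaip8l1) and for the inhibitor genes Nfkbie and Tnip1. They are from the RefSeq promoter table (build GRCm38.p6) and read 5′ to 3′ on the strand of the gene, with the κB match in capitals. The number of bases is the distance from the first base of the match to the transcript start that the table uses, which can differ from the start of the gene's interval given with its values.
Nfkbia (chr12:55492648-55492696, minus strand, 29 bases): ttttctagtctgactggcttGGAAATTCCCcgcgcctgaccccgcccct
Nfkbie (chr17:45555574-45555623, plus strand, 106 bases): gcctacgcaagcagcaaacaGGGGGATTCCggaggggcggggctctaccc
Tnip1 (chr11:54962967-54963016, minus strand, 56 bases): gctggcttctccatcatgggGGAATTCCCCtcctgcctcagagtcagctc
Nfkb2 (chr19:46304678-46304727, plus strand, 39 bases): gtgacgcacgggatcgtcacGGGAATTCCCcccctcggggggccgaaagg
Nfkb2 (chr19:46305685-46305734, plus strand, 225 bases): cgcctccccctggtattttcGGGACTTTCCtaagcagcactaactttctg
Ltb (chr17:35194400-35194449, plus strand, 87 bases): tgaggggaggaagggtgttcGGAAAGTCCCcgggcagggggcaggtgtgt
Pdcd1lg2 (chr19:29410669-29410704, plus strand, 244 bases): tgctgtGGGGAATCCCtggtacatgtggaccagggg
Tnip3 (chr6:65590324-65590373, plus strand, 54 bases): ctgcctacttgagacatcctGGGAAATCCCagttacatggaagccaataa
Tnfaip8l1 (chr17:56162323-56162372, plus strand, 148 bases): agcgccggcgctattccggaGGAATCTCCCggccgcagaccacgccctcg
The consensus was searched on both strands in the 250 bases before the start, and overlapping matches were counted once per gene. It was present in 4.46% of the 27025 genes with a window and in 5.22% of the 6646 compared genes with one. Among compared list members with a window it was found in 4 of 9 feedback inhibitors, 2 of 3 NF-κB subunit genes, 2 of 4 chemokine and cytokine genes, 7 of 20 effector targets, 3 of 13 immediate early genes, 1 of 24 interferon-stimulated genes and 0 of 15 stem cell genes. Of the 93 genes lower by at least 2-fold, 79 had a window and 2 of these had a match. Only 29 of the 59 genes higher by at least 2-fold had a window, so a share over that set is void. Matches not shown include those of the inhibitor gene Cyld and the subunit gene Rel, both lower in the double mutant. A match describes the letters of the window and not a bound site. The 2 Nfkb2 stretches belong to different annotated starts. Tnip3, an A20-binding gene, was at 25.7 against 55.8 CPM and Tnfaip8l1, of the same family as TNFAIP8, at 3.44 against 12.9 CPM, Jak2V617F first.

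The libraries differed in depth and in the sex of the pools, and the double-mutant library was a mixture. The median was 24915 UMIs per double-mutant cell and 11106.5 per Jak2V617F cell, with sums of 142211877 and 182778171 UMIs. Xist, made from the inactive X chromosome of female cells, was at 0.257 CPM in Jak2V617F cells and at 319.8 CPM in double-mutant cells. The cells of all 4 libraries were clustered together, and clusters were sorted by the control, Ikk2CA and Jak2V617F libraries alone. The share of Ikk2CA cells in a cluster was divided by that share plus the mean of the control and Jak2V617F shares. Limits were 0.8 and 0.2. In the clusters at 0.8 or more, mostly of Ikk2CA and double-mutant cells, lay 75.4% of double-mutant and 2.80% of Jak2V617F cells. Another 17.0% of double-mutant cells lay in clusters at 0.2 or less, mostly of control and Jak2V617F cells. That minority was split along Xist. Of 1159 double-mutant cells with Xist and no Y-linked UMI, 55.9% lay in the clusters of control and Jak2V617F cells and 39.8% in those of Ikk2-CA genotypes. Of 3265 cells with Y-linked and no Xist UMIs, 3.80% and 87.2% did. In the Ikk2CA library, Xist cells (4.04% and 85.6%) and Y cells (2.25% and 83.9%) were alike. Values are therefore also given below for cells without a Xist UMI and for the 1523 double-mutant cells with any Xist UMI, whether or not they held a Y-linked one, the latter against all Jak2V617F cells. A total of 22 barcodes occurred in both libraries. The sort's own genes Kit and Ly6a were present in both, and the 12 stem cell markers summed to 1449 CPM in Jak2V617F cells and 1131 CPM in double-mutant cells. Of these 12 only the lymphotoxin gene Ltb, also an NF-κB target, was higher in the double mutant. The sum thus understates how far the other markers fell. What sets the Xist cells of the double mutant apart was not tested, and library, sex and genotype cannot be told apart for them.

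**Figure D1:**
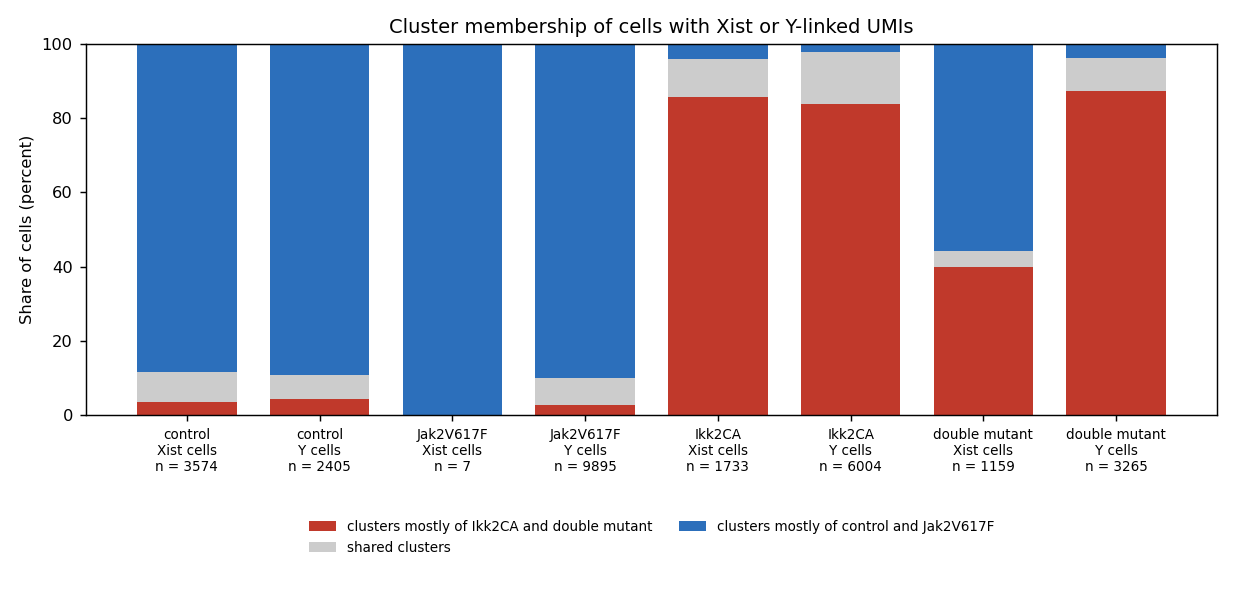
Share of cells (percent, stacked bars) in clusters mostly of Ikk2CA and double-mutant cells (red), shared clusters (grey) and clusters mostly of control and Jak2V617F cells (blue), for cells of at least 5000 UMIs with Xist and no Y-linked UMI or the reverse; n is the number of cells. In the double mutant 55.9% of Xist cells but 3.80% of Y cells lay in the blue clusters, whereas both kinds of Ikk2CA cells lay mostly in the red ones.

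Adding Ikk2-CA to Jak2 V617F went with higher Relb and Nfkb2, 2 of 5 NF-κB subunit genes, the inhibitor gene Nfkbia, lymphotoxin (Ltb), the platelet chemokine Pf4 and the trafficking gene Ehd3. On the scale of library totals the other 3 subunit genes and 13 of 19 NF-κB kinases and adaptors were below their Jak2V617F level. Immediate early genes (Fos, Egr1, Nr4a1), stem cell genes (Hlf, Procr) and the receptor genes Kit and Flt3 were lower. Of the 8247 compared genes, 59 (0.715%) were at least 2 times as high in the double mutant and 93 (1.13%) at most 0.5 times as high. The median gene stood at a log2 ratio of -0.21, and 29.0% of genes were above 0, so a list median is read against -0.21. With TMM or median-of-ratios factors in place of library totals, the median gene moved to 0.09 or 0.11. The 59 higher genes comprised 43 named protein-coding or other genes, 7 replication-dependent histone genes and 9 unnamed genes or pseudogenes. Of the 59, 56 were also at least 2 times as high in cells without Xist and 45 in double-mutant cells with Xist. Of the 93 lower genes, 90 and 22 were.

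**Figure D2:**
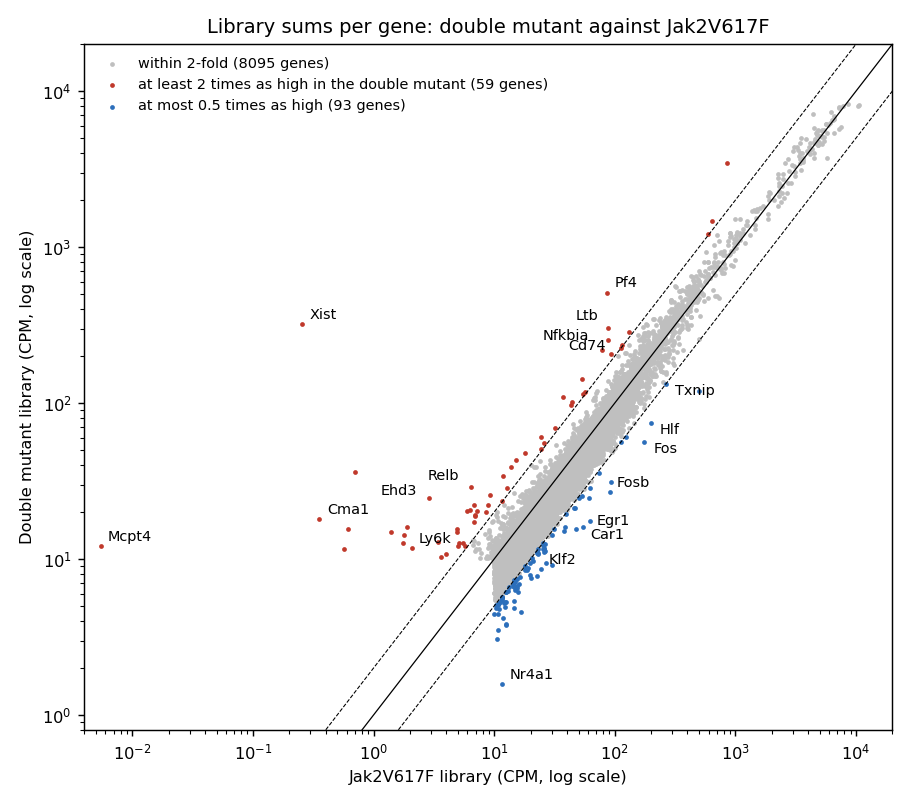
CPM of each compared gene in the Jak2V617F library (x axis, log scale) and the double-mutant library (y axis, log scale); the solid line marks equal levels and the dashed lines a 2-fold difference. Red points are the 59 genes at least 2 times as high in the double mutant and blue points the 93 at most 0.5 times as high; Ehd3, Relb, Ltb and Pf4 lie far above the band and Nr4a1, Egr1, Fos and Hlf below it.

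Of the 5 NF-κB subunit genes, the pair of the non-canonical branch was higher and the others were not. Relb (chr7:19606217-19629438, minus strand) was at 6.46 CPM in Jak2V617F cells and at 28.9 CPM in double-mutant cells (4.48-fold, 95% interval 4.20 to 4.79). The controls held 6.31 CPM and Ikk2CA 34.9 CPM, so both libraries with Ikk2-CA were high and both without were low. Nfkb2 (chr19:46304320-46312385, plus strand), which encodes the p52 precursor, was at 8.57 CPM in Jak2V617F cells and at 19.998 CPM in double-mutant cells (2.33-fold, 95% interval 2.19 to 2.48), against 7.64 CPM in control and 27.5 CPM in Ikk2CA. Nfkb1, the p50 precursor gene, was at 101 CPM in Jak2V617F cells and at 82.1 CPM in double-mutant cells, Rela at 40.9 against 33.5 CPM and Rel at 29.5 against 23.1 CPM in that order, each a little below its Jak2V617F level. The list median was -0.29, or 0.02 with TMM factors, so its sign depended on the scaling, while Relb and Nfkb2 were above 1 (log2) under both.

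The feedback inhibitors split into a higher and a lower group. Nfkbia (chr12:55489410-55492647, minus strand), which encodes IκBα, was at 87.4 CPM in Jak2V617F cells and at 252 CPM in double-mutant cells (2.88-fold, 95% interval 2.83 to 2.93), 69.9 CPM in control and 325 CPM in Ikk2CA. Nfkbie, for IκBε, was at 10.6 against 19.96 CPM (1.88-fold, 95% interval 1.77 to 1.99), with 13.1 CPM in control and 25.9 CPM in Ikk2CA. These and Relb and Nfkb2 carry the order Ikk2CA, double mutant, then the libraries without Ikk2-CA. Nfkbib, for IκBβ, was at 21.2 against 31.2 CPM, the A20-binding gene Tnip1 at 24.0 against 32.6 CPM, the linear-ubiquitin protease gene Otulin at 51.5 against 65.8 CPM and the nuclear IκB gene Bcl3 at 10.1 against 12.0 CPM. Lower were Nfkbiz, a nuclear IκB (16.7 against 10.1 CPM), the deubiquitinase gene Cyld (40.3 against 30.9 CPM), N4bp1 (37.0 against 26.7 CPM) and Tnip2 (11.8 against 8.80 CPM). Tnfaip3, the A20 gene, stayed under 10 CPM in both libraries (4.99 against 7.07 CPM) and so was not compared, although Ikk2CA held 19.5 CPM against 4.16 CPM in control. Nfkbid was also under 10 CPM. Of the 10 of 12 members compared, 6 were above 0 and 1 was past 2-fold, with a median of 0.30 (0.61 with TMM factors, 0.33 in cells without a Xist UMI, 0.21 in those with any). The same list stood at 0.80 in Ikk2CA over control.

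The kinases and adaptors that lead to NF-κB did not follow. Of 19 compared members, 6 were above 0, none was past 2-fold, and the median was -0.40, or -0.10 with TMM factors. Tank, a TRAF-binding adaptor, was at 20.6 against 31.0 CPM, the highest ratio of the list. The ubiquitin ligase gene Traf6 was at 14.2 against 7.85 CPM, the TAK1-binding gene Tab2 at 75.2 against 50.5 CPM, the death-domain kinase gene Ripk1 at 35.6 against 24.2 CPM and Ikbkg, which encodes the NEMO subunit, at 13.3 against 9.38 CPM. Ikbkb itself was at 67.3 against 51.5 CPM, a level that does not tell the endogenous gene from the transgene.

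Among the cytokine and chemokine targets, Ltb and Ccl5 were higher and Ccl3 and Ccl4 lower. Ltb (chr17:35194439-35196320, plus strand), which encodes lymphotoxin β, was at 88.0 CPM in Jak2V617F cells and at 304 CPM in double-mutant cells (3.45-fold, 95% interval 3.39 to 3.52), with 104 CPM in control and 355 CPM in Ikk2CA. The chemokine gene Ccl5 was at 15.1 against 42.8 CPM (2.83-fold, 95% interval 2.71 to 2.96), with 8.98 and 75.5 CPM in control and Ikk2CA. T and NK cells also express Ccl5, and their 10 markers summed to 235 and 228 CPM. Nkg7, also a granulocyte-monocyte marker, is 1 of the 10 and was at 218 and 230 CPM in Y cells of the 2 libraries. The sums thus say little about T and NK cells. With all libraries clustered together T/NK-like cells were 0.678% of Jak2V617F and 0.323% of double-mutant cells. Without the B, plasma, T/NK, mast and unnamed lineage classes the log2 ratio of Ccl5 was 2.06. Ccl3, a macrophage inflammatory protein gene, was at 30.4 against 9.20 CPM (a ratio of 0.303 with a 95% interval of 0.285 to 0.322), while control held 36.8 CPM and Ikk2CA 54.3 CPM. Its neighbour Ccl4 was at 48.0 against 15.5 CPM, with 42.0 and 109 CPM in control and Ikk2CA. So Ccl3 and Ccl4 were lowest in the double mutant and highest in Ikk2CA. Only 7 of 16 members reached 10 CPM, with a median of -0.26 (0.05 with TMM factors). Cells of 10000 to 20000 UMIs in both libraries form a window of matched depth, added after the data were seen, which lies below the median depth of double-mutant cells and holds that of Jak2V617F cells. S phase and G2 and M phase genes stood at -1.24 and -2.19 in it, so the window takes cells of different cycle states from the libraries. There the log2 ratio of Ccl3 was -0.26 and that of Ccl4 0.07, whereas Ltb stood at 3.30 and Ccl5 at 2.19.

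The effector targets were led by Ehd3, Pdcd1lg2, Serpina3f and Cd74. Ehd3 (chr17:73804134-73832094, plus strand), a regulator of endosomal trafficking, was at 2.89 CPM in Jak2V617F cells and at 24.5 CPM in double-mutant cells (8.47-fold, 95% interval 7.72 to 9.30), with 2.44 CPM in control and 47.6 CPM in Ikk2CA. Pdcd1lg2, which encodes the PD-1 ligand PD-L2, was at 5.94 against 20.3 CPM (3.41-fold, 95% interval 3.18 to 3.66), the protease inhibitor gene Serpina3f at 8.91 against 22.1 CPM (2.49-fold, 95% interval 2.34 to 2.64) and Cd74, the invariant chain of MHC class II, at 112 against 225 CPM (2.02-fold, 95% interval 1.98 to 2.05). Ikk2CA held 17.0, 18.6 and 593 CPM of these and control 4.36, 2.86 and 133 CPM, so the double mutant lay between control and Ikk2CA for Cd74 and above Ikk2CA for the other pair. The common γ chain gene Il2rg was at 44.7 against 73.6 CPM. Of 23 compared members, 14 were above 0 and 4 past 2-fold, all higher. The median was 0.07, against 0.39 in Ikk2CA over control. It was 0.11 in cells without a Xist UMI and -0.13 in those with any. Of 9 compared TNF and interleukin-1 family receptors, only Il18r1 was past 2-fold (6.78 against 22.2 CPM; 3.28-fold, 95% interval 3.07 to 3.50), and the list median was -0.24 (0.07 with TMM factors).

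**Figure D3:**
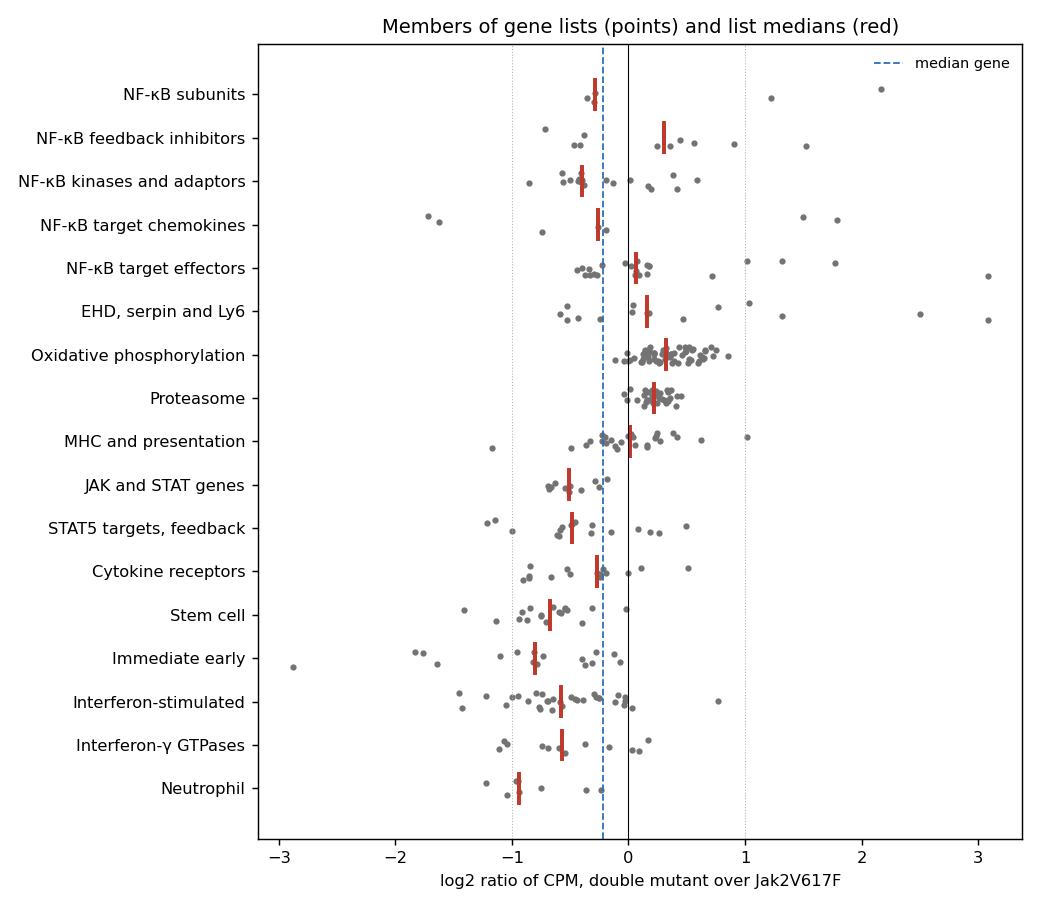
Log2 ratio of CPM, double mutant over Jak2V617F (x axis), of every compared member (grey points) of 17 gene lists, with the list median (red bar), the median gene at -0.21 (blue dashed line) and a 2-fold difference either way (dotted lines). Members of the NF-κB lists spread widely on both sides, the 62 oxidative phosphorylation genes lie together above the median gene, and all compared stem cell, immediate early, neutrophil and JAK and STAT genes lie below 0.

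Detection per cell followed the sums for the NF-κB genes. To remove the gap in depth, each cell was thinned to 5000 UMIs, which left out 1361 Jak2V617F and 146 double-mutant cells below that number. Nfkbia was then found in 33.1% of Jak2V617F cells (95% interval 32.3 to 33.9) and 66.2% of double-mutant cells (64.9 to 67.5), or 57.3% and 93.5% unthinned. For Ltb the thinned shares were 30.6% of Jak2V617F and 64.7% of double-mutant cells, for Pf4 11.5% of Jak2V617F and 40.2% of double-mutant cells and for Cd74 21.4% of Jak2V617F and 44.8% of double-mutant cells. Relb was found in 3.44% of Jak2V617F and 13.9% of double-mutant cells, Ehd3 in 1.25% of Jak2V617F and 9.84% of double-mutant cells, Pdcd1lg2 in 3.52% of Jak2V617F and 10.97% of double-mutant cells and Ccl5 in 2.42% of Jak2V617F and 8.77% of double-mutant cells. Free RNA can add UMIs to cells that do not express a gene, so the granulocyte-monocyte-like cells are given beside these. There Pf4 was found in 2.40% and 3.57% of the cells of the 2 libraries in that order, Ltb in 3.47% and 12.2% and Relb in 1.07% and 7.14%. In stem cell-like cells Ltb was found in 64.0% and 88.1%, but Ltb is among the markers by which that class was named.

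**Figure D4:**
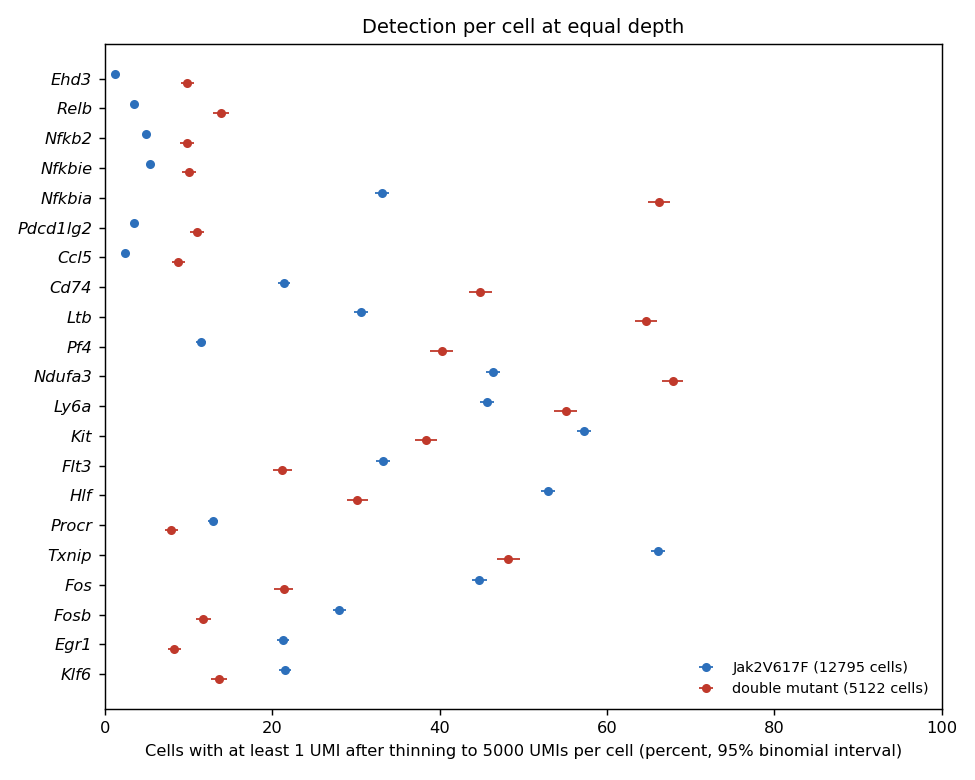
Percent of cells with at least 1 UMI of a gene after each cell was thinned to 5000 UMIs (x axis), in Jak2V617F (blue, 12795 cells) and double-mutant cells (red, 5122 cells); bars are 95% exact binomial intervals, mostly narrower than the points. Nfkbia, Ltb, Pf4 and Cd74 are shifted to the right in the double mutant and Fos, Hlf, Kit and Txnip to the left.

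Relb, Nfkb2, Nfkbia, Nfkbie and Ltb were higher in most cell clusters, whereas Rela, Nfkb1 and Rel were lower in most on the scale of library totals. Each double-mutant cell was given the cluster of most of its 15 nearest Jak2V617F cells, and 17 clusters held at least 50 cells of both libraries. Ehd3 was higher in 17 of 17 (median log2 ratio 4.20), Relb in 17 (2.31), Ltb in 17 (2.45), Nfkbia in 17 (1.63), Cd74 in 17 (1.89) and Pf4, of no NF-κB list, in 16 (2.91). Nfkbie was higher in 17 (0.98) and Nfkb2 in 16 (1.18). Against these, Rela was lower in 16 of 17 (-0.27), Nfkb1 in 16 (-0.20), Rel in 15 (-0.27) and the inhibitor gene Nfkbiz in 16 (-0.52). Nfkbia was at 142 against 308 CPM in stem cell-like, 98.0 against 234 CPM in lymphoid-primed-like, 85.4 against 311 CPM in megakaryocyte-like, 59.8 against 189.7 CPM in granulocyte-monocyte-like and 99.3 against 111 CPM in B cell-like cells, Jak2V617F first. The B cell-like cells thus differed least. Ltb was at 302 against 850.0 CPM in stem cell-like cells, a class named partly by Ltb, and 27.5 against 168 CPM in megakaryocyte-like cells.

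Ehd3 belongs to a list of genes of trafficking, serpins and the Ly6 surface family, of which 10 of 15 compared members were above 0 and 4 past 2-fold, all higher (median 0.16). The Ly6 gene Ly6k was at 2.07 against 11.7 CPM and Ly6d, a marker of lymphoid and dendritic precursors, at 11.5 against 23.5 CPM, against 411 CPM in Ikk2CA. Ly6e was at 704 against 1198 CPM (1.70-fold, 95% interval 1.69 to 1.71) and Ly6a, which encodes the sort marker Sca-1, at 138 against 191 CPM (1.38-fold, 95% interval 1.36 to 1.41). In double-mutant cells with any Xist UMI these stood at log2 ratios of 0.41 and 0.12. Of the other sort markers, Kit was at 175 against 93.5 CPM, Cd34 at 331 against 264 CPM, Flt3 at 92.3 against 51.2 CPM and Cd48 at 144 against 205 CPM. Of 7 compared Gimap GTPase genes, which act in lymphocyte survival, only Gimap7 was past 2-fold (13.8 against 38.8 CPM; 2.81-fold, 95% interval 2.68 to 2.95), with 13.8 CPM in control and 51.8 CPM in Ikk2CA. The complement regulator gene Cd55 (9.16 against 25.7 CPM), the small GTPase gene Rrad (6.35 against 20.6 CPM) and the surface glycoprotein gene Thy1 (4.94 against 15.5 CPM) were also past 2-fold.

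Pf4, which encodes platelet factor 4, was higher in the double mutant and was not followed by the other megakaryocyte genes. Pf4 (chr5:90772435-90773383, plus strand) was at 86.1 CPM in Jak2V617F cells and at 509 CPM in double-mutant cells (5.91-fold, 95% interval 5.81 to 6.01), with 99.3 CPM in control and 444 CPM in Ikk2CA. Of the 14 compared megakaryocyte genes only Pf4, Gp5 (8.90 against 10.2 CPM) and Cd9 (94.3 against 95.5 CPM) were above 0, and the median was -0.29 (0.01 with TMM factors). Mmrn1, for multimerin, was at 11.7 against 5.68 CPM and Selp, for P-selectin, at 28.5 against 14.5 CPM. Pf4 was at 775 against 2960.3 CPM in megakaryocyte-like cells and 40.2 against 399 CPM in stem cell-like cells, so both cell types were higher. Megakaryocyte-like cells made up 7.92% of Jak2V617F and 12.0% of double-mutant cells by nearest Jak2V617F cells. With all libraries clustered together they were 9.66% and 10.4%, and 18.4% and 8.35% at a Leiden resolution of 0.5. The direction of this difference thus depended on the clustering. In Xist and Y cells of the double mutant Pf4 was at 209 and 593 CPM.

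Mast cell proteases were close to 0 in Jak2V617F and came from few cells. Mcpt4, a chymase, had 1 UMI in the Jak2V617F library and 1712 UMIs in the double mutant (12.0 CPM), and Cma1, another chymase, 64 and 2555 UMIs. Of the double-mutant UMIs, 92.5% of Mcpt4 and 94.4% of Cma1 lay in the 34 mast or basophil-like cells of that library, which were 0.645% of its cells. The Jak2V617F library held 3 such cells, 0.021%. Of the carboxypeptidase gene Cpa3 (18.0 against 47.7 CPM), 20.4% lay in those 34 cells, and of Pf4 0.072%. The 11 mast and basophil markers summed to 39.2 and 116.0 CPM, with 1 of them at 0 in Jak2V617F. The 6 eosinophil markers summed to 11.01 and 1.77 CPM, with 2 at 0 in the double mutant.

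The kinases and transcription factors of the JAK2 pathway were all lower in the double mutant on the scale of library totals. The 11 JAK and STAT genes had a median of -0.51, none above 0 and none past 2-fold. With TMM factors the median was -0.20, and in the cells of 10000 to 20000 UMIs it was 0.04, when the median gene stood at -0.13. Jak2 was at 18.0 against 11.6 CPM, Stat3 at 83.3 against 52.6 CPM and Stat5b at 37.3 against 23.3 CPM. Of 17 compared STAT5 targets and feedback genes, 4 were above 0, none was past 2-fold higher and 3 were past 2-fold lower. Those were Socs3, a feedback inhibitor of cytokine receptors (12.1 against 5.20 CPM; a ratio of 0.430 with a 95% interval of 0.395 to 0.468), the kinase gene Pim2 (14.7 against 6.61 CPM) and the feedback gene Cish (18.0 against 8.98 CPM; a ratio of 0.499 with a 95% interval of 0.468 to 0.533). Socs2, another feedback gene, was at 17.5 against 24.6 CPM in the other direction, the survival gene Mcl1 at 142 against 102 CPM and the cyclin gene Ccnd2 at 243 against 160.2 CPM. The list median was -0.48, -0.18 with TMM factors and 0.01 in the depth window, where Socs3 stood at -0.12, Pim2 at 0.27 and Cish at 0.24. Whether the gap in depth between the cells plays a part in these lower values was not tested.

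Stem cell genes were lower as a group. None of the 18 compared members was above 0, 2 were past 2-fold lower, and the median was -0.67, against -1.13 in Ikk2CA over control, where 11 were past 2-fold lower. Hlf (chr11:90336536-90390895), a transcription factor of stem cells, was at 198 CPM in Jak2V617F cells and at 74.5 CPM in double-mutant cells (a ratio of 0.377 with a 95% interval of 0.369 to 0.385), with 221 CPM in control and 43.4 CPM in Ikk2CA. Procr, which encodes the stem cell surface marker EPCR, was at 25.7 against 11.7 CPM (a ratio of 0.454 with a 95% interval of 0.429 to 0.480). Hlf was found in 52.9% of Jak2V617F cells (95% interval 52.1 to 53.8) and 30.2% of double-mutant cells (28.9 to 31.4) after thinning, or 71.8% and 62.9% unthinned. The list median was -0.37 with TMM factors, -0.81 in cells without a Xist UMI and -0.41 in those with any. It was -0.53 when each cell class, assigned from the Jak2V617F library, was given the same weight in both libraries. With classes from all libraries clustered together it was -0.10, when the median gene stood at -0.18. The size of the fall thus depended on how classes were drawn. In the cells of 10000 to 20000 UMIs the list median was 0.31, with Procr at 0.66 and Hlf at 0.00, so the list was not lower in that window.

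Fewer double-mutant cells were stem cell-like, 11.4% against 23.9% of Jak2V617F cells by nearest Jak2V617F cells and 6.32% against 27.9% when all libraries were clustered together. The second count rests on clusters that separate the Ikk2-CA genotypes. The first includes a cluster of 1597 Jak2V617F and 317 double-mutant cells whose 3 stem cell markers were Ltb, Hlf and Procr. That part of the count therefore rests partly on Ltb, which was itself higher in the double mutant. Within the stem cell-like cells assigned from Jak2V617F cells, Hlf was at 487 against 279.7 CPM. The Procr values of this class were 76.6 against 75.5 CPM. Over the single clusters, Hlf was lower in 17 of 17 with a median log2 ratio of -1.28, and Procr in 16 of 17 with a median of -1.28, so Procr was near equal in the pooled stem cell-like class but lower in most clusters. By nearest Jak2V617F cells, lymphoid-primed-like cells made up 10.0% of Jak2V617F and 9.11% of double-mutant cells, granulocyte-monocyte-like cells 2.75% and 3.74%, B cell-like cells 0.812% and 1.03%, and erythroid-like cells 1.35% and 0.361%. With all libraries clustered together these were, in the same order, 5.31% and 1.82%, 2.54% and 14.1%, 0.671% and 0.949%, and 1.21% and 0.304%. Plasmacytoid dendritic-like cells were 0.954% and 7.10% there. No Jak2V617F cluster had that name, so the first method cannot show them. At a Leiden resolution of 0.5 no cluster of the 4 libraries had it either, so this difference depended on the clustering. The 10 plasmacytoid dendritic markers summed to 466 CPM in Jak2V617F cells and 399 CPM in double-mutant cells. Of these markers 1 was higher and 1 was at 0 in the double mutant. Unnamed clusters of the first method, several of them led by cell cycle genes, held 52.1% and 61.9%.

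Cytokine receptor genes showed the same direction in Kit and Flt3. Kit, the stem cell factor receptor, was at 175 CPM in Jak2V617F cells and at 93.5 CPM in double-mutant cells (a ratio of 0.535 with a 95% interval of 0.524 to 0.546), with 149 CPM in control and 87.6 CPM in Ikk2CA. Flt3 was at 92.3 against 51.2 CPM (a ratio of 0.554 with a 95% interval of 0.539 to 0.570) and Tgfbr2, for a TGF-β receptor, at 23.9 against 13.2 CPM. After thinning Kit was found in 57.3% of Jak2V617F and 38.3% of double-mutant cells, although unthinned the shares were 81.1% and 84.7%. In stem cell-like cells Kit was at 270.3 against 149.9 CPM. Of 16 compared receptors 2 were above 0 and none was past 2-fold, with a median of -0.27 (0.04 with TMM factors).

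Immediate early genes, transcription factors that cells induce within minutes of a stimulus and also during tissue dissociation, were lower in the double mutant. None of 16 compared members was above 0 and 5 were past 2-fold lower. Nr4a1 was at 11.6 CPM in Jak2V617F cells and at 1.58 CPM in double-mutant cells (a ratio of 0.136 with a 95% interval of 0.118 to 0.156), Egr1 at 62.1 against 17.5 CPM (a ratio of 0.282 with a 95% interval of 0.269 to 0.294), Fosb at 90.7 against 26.8 CPM (a ratio of 0.295 with a 95% interval of 0.285 to 0.306) and Fos (chr12:85473890-85477273, plus strand) at 176 against 56.4 CPM (a ratio of 0.321 with a 95% interval of 0.313 to 0.329). The fifth was the clock gene Per1, named again below. Fos was found in 44.8% of Jak2V617F cells (95% interval 43.9 to 45.6) and 21.4% of double-mutant cells (20.2 to 22.5) after thinning. In stem cell-like cells Fos was at 423 against 144 CPM and Egr1 at 138 against 41.3 CPM, and both were lower in 17 of 17 clusters. The list median was -0.80, -0.50 with TMM factors, -0.52 in double-mutant cells with any Xist UMI and 0.14 in the depth window. At that depth Fos stood at -0.55, Egr1 at -0.86 and Nr4a1 at -2.13. Quiescence genes had a median of -0.61 over 13 members, of which Egr1, Nr4a1 and Btg2 are on both lists, and 5 were past 2-fold lower. The Krüppel-like factor genes Klf2 (24.4 against 8.56 CPM) and Klf6 (53.4 against 25.3 CPM) were among them, at -0.01 and 0.26 (log2) in the depth window. Txnip, an inhibitor of thioredoxin, was at 267 against 133 CPM (a ratio of 0.498 with a 95% interval of 0.489 to 0.506), and at 0.49 (log2) in the depth window.

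The immediate early genes ran the other way without Jak2 V617F. There Ikk2CA over control had a median of 1.05, with 16 of 17 members above 0. Fos was at 55.7 CPM in control, 176 in Jak2V617F, 411 in Ikk2CA and 56.4 in the double mutant. Nr4a1 followed with 2.28, 11.6, 25.9 and 1.58 CPM and Egr1 with 20.5, 62.1, 77.9 and 17.5 CPM in the same order. Each of these was high in both libraries with a single mutation and near the control level in the double mutant.

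Interferon-stimulated genes were lower too. Of 32 compared members 2 were above 0, none was past 2-fold higher and 4 were past 2-fold lower, with a median of -0.58 (-0.27 with TMM factors, -0.52 in Ikk2CA over control). Rsad2, which encodes viperin, was at 14.7 against 5.35 CPM, Ifi44 at 20.3 against 7.55 CPM, Slfn5 at 12.4 against 5.32 CPM and the oligoadenylate synthetase gene Oas3 at 14.2 against 6.88 CPM. The interferon-γ GTPases had a median of -0.57 over 12 members, 3 of them above 0 and 3 past 2-fold lower. Iigp1 was at 50.5 against 24.5 CPM, Irgm2 at 13.1 against 6.22 CPM and Gbp7 at 68.1 against 40.8 CPM. In the depth window these lists stood at 0.18 and 0.20, so they were not lower there. MHC and antigen presentation genes were divided, with 13 of 26 above 0 and a median of 0.01. H2-D1, a class I heavy chain, was at 983 against 1509.6 CPM (1.54-fold, 95% interval 1.53 to 1.55) and the immunoproteasome gene Psmb10 at 158 against 210.1 CPM, while H2-Ob, a modulator of class II loading, was at 26.0 against 11.6 CPM.

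The few B cell genes that could be compared were slightly higher, and lymphoid priming and neutrophil genes lower. Only 5 of 16 B cell genes reached 10 CPM, all above 0 with a median of 0.42, against 2.40 over 12 genes in Ikk2CA over control. The median was 0.09 with no filter on low values, -0.03 with cell means and 1.43 in the depth window. Cd79a, of the B cell receptor, was at 7.13 against 11.6 CPM, with 32.9 CPM in control and 187 CPM in Ikk2CA. It was compared only through its double-mutant level. Vpreb1, of the pre-B cell receptor, was at 12.3 against 16.1 CPM and 227 CPM in Ikk2CA. So the B cell transcripts that were abundant in Ikk2CA were low in both libraries with Jak2 V617F. Lymphoid priming genes had a median of -0.46 with 3 of 20 above 0, Wfdc17 (92.1 against 31.1 CPM) and the receptor gene Notch1 (39.6 against 19.5 CPM) being past 2-fold lower. In Xist and Y cells of the double mutant Wfdc17 was at 93.2 and 13.3 CPM. Plasmacytoid and dendritic genes had a median of -0.03 over 13 members. Neutrophil genes were all below 0 (8 of 8, median -0.94), with S100a8 at 369.9 against 219 CPM and the granule gene Ngp at 125 against 60.7 CPM. The 9 neutrophil markers summed to 1238 CPM in Jak2V617F cells and 675 CPM in double-mutant cells, with none at 0. The neutrophil-like cells were 0.466% and 0.209% of the libraries. With classes given the same weight in both libraries the list stood at 1.02. For that weighting, clusters of under 20 cells in either library were pooled. The neutrophil-like (66 and 11 cells) and erythroid-like clusters (191 and 19 cells) were among these. Their own shares were thus not made equal, and the 1.02 does not tell levels from shares. Other granulocyte-monocyte genes included Ltf, for lactoferrin (24.3 against 12.4 CPM), and the list had 7 of 24 above 0. Car1, an erythroid carbonic anhydrase, was at 54.3 against 16.1 CPM (a ratio of 0.297 with a 95% interval of 0.283 to 0.310). It was at 0.16 (log2) with classes given the same weight, a value with the same limit.

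Genes of respiration and protein turnover were slightly and evenly higher. All 62 oxidative phosphorylation genes lay above the median gene and 58 above 0, none past 2-fold, with a median of 0.32, near the 0.31 of Ikk2CA over control. Ndufa3, a complex I subunit, was at 131 against 237 CPM (1.81-fold, 95% interval 1.78 to 1.84), Ndufa1 at 125 against 210.0 CPM, the ATP synthase gene Atp5k at 207 against 343 CPM, Cox7c of complex IV at 565 against 922 CPM and Uqcrq of complex III at 291 against 458 CPM. Ndufa3 was found in 46.4% of Jak2V617F and 67.8% of double-mutant cells after thinning. All 37 proteasome genes lay above the median gene and 35 above 0, with a median of 0.22. In the depth window the lists stood at -0.03 and -0.09, where the median gene was at -0.13. Of 44 MYC and ribosome biogenesis genes 33 were above 0, with a median of 0.15, and Myc itself was at 155 against 124 CPM. In the depth window the median of this list was -0.30, below the median gene there. S phase genes (40 compared, median 0.07) and G2 and M phase genes (39 compared, median -0.09) had no member past 2-fold. Glycolysis genes had a median of -0.01 and chaperone genes -0.08.

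Smaller families were mixed. Of the 10 compared BCL2 family genes 6 were above 0, the death gene Bbc3 being at 12.2 against 18.6 CPM and the opposing Bcl2 at 94.9 against 62.4 CPM, while Bcl2l11, which encodes BIM, was at 14.5 against 8.10 CPM. Of 24 adhesion and homing genes 2 were above 0, with a median of -0.39, and the adhesion gene Alcam at 25.4 against 11.5 CPM. None of 7 circadian genes was above 0 and Per1, a clock repressor, was at 20.98 against 9.76 CPM. Id2, an inhibitor of E proteins, was at 15.96 against 6.92 CPM. The stem cell transporter gene Slc18a2 (38.0 against 15.2 CPM), the lipoprotein receptor gene Vldlr (26.3 against 11.3 CPM), the chromatin gene Hmga2 (22.8 against 7.74 CPM) and Klf9 (39.0 against 15.997 CPM) were among the lowest ratios at 20 CPM or more.

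Ikk2-CA was also added to control cells, and most of the genes higher with Jak2 V617F were higher there too. In that step 179 (2.14%) of the 8377 genes were past 2-fold higher and 282 (3.37%) past 2-fold lower, with a median gene of -0.23. The comparisons share no library. Of the 54 genes higher with Jak2 V617F and compared in both, 34 were also past 2-fold higher without it, which is 63.0% of the 54 and 28.6% of the 119 higher without it. In all, 42 of the 54 were above 0 and 4 were past 2-fold lower. Of the 82 lower genes 41 were also past 2-fold lower without Jak2 V617F (50% of the 82, 16.7% of 245) and 9 were past 2-fold higher. Pearson's r across the 8088 genes was 0.588, a description over genes, which are not independent and share library depths. Ehd3, Relb, Ltb, Nfkbia and Pf4 were past 2-fold higher in both steps and Hlf and Wfdc17 past 2-fold lower.

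**Figure D5:**
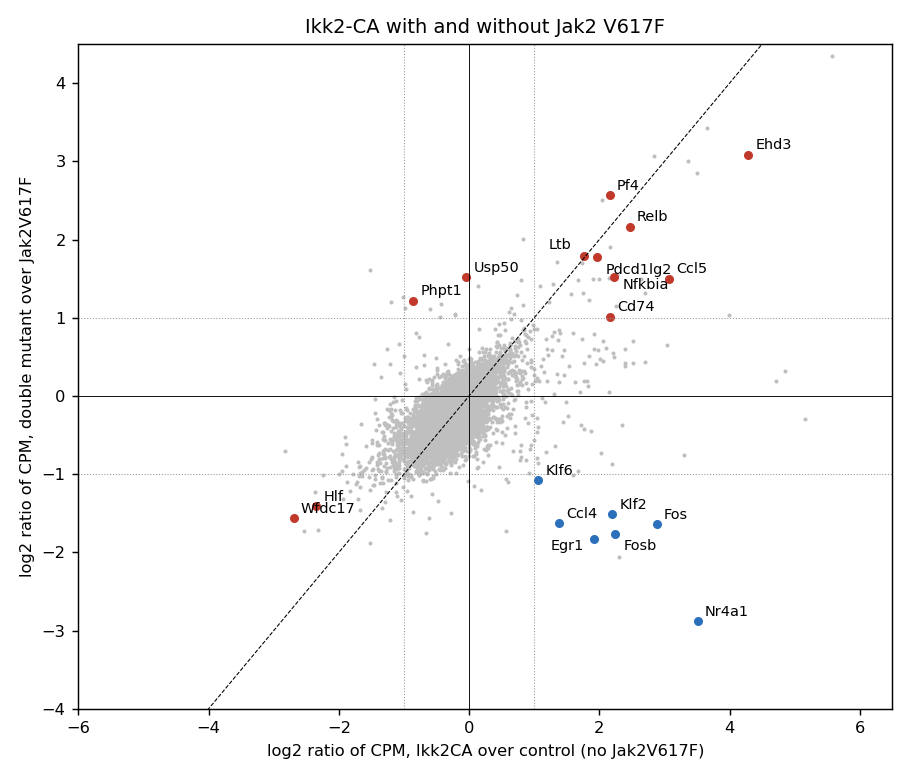
Log2 ratio of CPM for Ikk2CA over control (x axis) and double mutant over Jak2V617F (y axis) for the genes compared in both steps, Xist left out and Ighg2b and Gm10260 beyond the axes; dotted lines mark 2-fold and the dashed line equal ratios. Red labelled points are genes described in the text, and blue points (Fos, Fosb, Egr1, Nr4a1, Klf2, Klf6, Ccl4) were past 2-fold higher without and past 2-fold lower with Jak2 V617F.

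Phpt1 and Bloc1s1 were lower in both libraries with a single mutation than in control and in the double mutant. Phpt1, a histidine phosphatase gene, was at 85.9 CPM in control, 43.9 in Jak2V617F, 47.5 in Ikk2CA and 102 in the double mutant. Bloc1s1, of a lysosome trafficking complex, was at 84.8, 43.4, 62.7 and 97.7 CPM. Usp50, of the ubiquitin-specific protease family, was highest in the double mutant alone, at 17.6, 11.9, 17.1 and 34.2 CPM. The pseudogene Nutf2-ps1 (31.9 against 69.6 CPM) and the histone genes Hist1h4d (77.8 against 219 CPM), Hist1h2ab (37.3 against 109 CPM) and Hist1h3b (7.27 against 20.3 CPM) have near-identical copies among which counting could split reads, so their values are uncertain. Replication-dependent histone transcripts lack the poly(A) tail on which droplet assays prime.

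Several genes that were higher in the double mutant differed between its Xist and Y cells, and others did so little. In Xist and Y cells, Ehd3 was at 10.7 and 28.7 CPM, Relb at 18.1 and 31.2 CPM, Nfkbia at 149 and 279 CPM and Ltb at 213 and 324 CPM, each higher in Y cells. By contrast Phpt1 was at 98.8 and 102 CPM, Usp50 at 34.4 and 34.6 CPM and Ndufa3 at 232 and 239 CPM. Over 57 of the higher genes the median log2 ratio of Xist over Y cells was -0.56, and 51 were lower in Xist cells. Over 92 of the lower genes it was 0.53, and 6 were lower in Xist cells. In the Ikk2CA library the same sets stood at -0.01 and -0.07. The double-mutant cells in the clusters of Ikk2-CA genotypes held 267 CPM of Nfkbia, those in the clusters of control and Jak2V617F cells 136 CPM, and Jak2V617F cells of the latter clusters 88.7 CPM. For Relb these were 32.5, 13.6 and 6.77 CPM, and for Ccl3 7.41, 29.9 and 33.8 CPM. The immediate early list stood at -0.78 in the first set of cells over the second and at -0.15 in the second over Jak2V617F cells. These genes were left out of the clustering, but the clusters were drawn from the same cells, so these values are a description.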

How the data were processed

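The data are droplet single-cell RNA libraries of LSK cells, 1 pooled library per genotype. The deposited values are UMI counts per gene and barcode, not normalised. Per the series' design text the authors counted with Cell Ranger 3.0.1, whereas the file headers name Cell Ranger 4.0.0. Genome build mm10 and Seurat 4.0.0 are given in the submitters' processing notes. Gene positions are from GENCODE M21 (GRCm38) and promoters from RefSeq (GRCm38.p6).

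Barcodes were kept with 500 to 7500 genes and under 10% mitochondrial UMIs, which left 14156 of 15620 Jak2V617F and 5268 of 5774 double-mutant barcodes. UMIs were summed per library and scaled to CPM, and genes of at least 10 CPM in either library were compared. With 1 library a side no test was possible. Ratios carry exact conditional binomial intervals and shares exact Clopper-Pearson intervals, both 95% and for counting error only. A count of 0 was put at a floor of 3 UMIs. For detection each cell was thinned to 5000 UMIs.

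Genes were named from those of 20 CPM or more in 1 of the libraries, as the 15 highest and 15 lowest ratios, the 10 largest differences each way from the ratio of Ikk2CA over control, up to 5 members of each of 42 gene lists (10 CPM), and all members of the NF-κB subunit, feedback inhibitor and sort marker lists. Sex-linked, antigen receptor, unnamed, mitochondrial and ribosomal protein genes were no candidates. Btg2, Cd9, Gp5, Myc, Socs2, Tnip3, Tnfaip8l1, Ighg2b and Gm10260 lie outside that rule and were chosen after their values were seen. The members and lists were chosen with earlier results of these data known.

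Cells were clustered with scanpy 1.11.5 (2000 variable genes, 30 principal components, 15 neighbours, Leiden resolution 1, 651 genes left out). Clusters were named as cell type-like from at least 3 fixed markers among the 25 leading genes. The genes left out were sex-linked, mitochondrial and antigen receptor genes and the response lists compared between genotypes. Response genes that were also cell type markers, such as Ltb and Ly6d, were not left out. Because the pooled clusters separated the Ikk2-CA genotypes, classes for comparisons within cell types came from clusters of the Jak2V617F library alone, with each double-mutant cell given the class of most of its 15 nearest Jak2V617F cells. That step was added after the data were seen. Scrublet called 1 Jak2V617F and 2 double-mutant cells, so it did not work. No doublets were removed, except in an alternative without the 1769 and 243 cells of highest score. As other scalings, TMM factors (edgeR 4.0.16) and median-of-ratios factors (DESeq2 1.42.0) were computed, both under R 4.3.3. Other alternatives were filters on low values and on mitochondrial UMIs, cells with and without Xist, class-standardised sums, cell means, and cells of 10000 to 20000 UMIs. In class-standardised sums, classes of under 20 cells in either library were pooled. The scripts were tested on simulated counts. Some genes that the naming rule picks are not reported here.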

Additional observations from a re-analysis of the deposited data

Results flagged for a closer look

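Some genes moved past 2-fold one way when Ikk2-CA was added to control cells and past 2-fold the other way when it was added to Jak2 V617F cells. Of the 8088 genes compared in both steps, 9 were higher without and lower with Jak2 V617F, and 4 the reverse. Those listed here are from the 9 and are not all of them. The value given is the log2 ratio of double mutant over Jak2V617F minus that of Ikk2CA over control. It was -6.39 for Nr4a1, -4.52 for Fos, -3.998 for Fosb, -3.75 for Egr1, -3.71 for Klf2, -3.01 for the chemokine gene Ccl4 and -2.14 for Klf6. Each was higher in Ikk2CA than in control and lower in the double mutant than in Jak2V617F. With 1 library per genotype the difference was not tested. In the cells of 10000 to 20000 UMIs, Ccl4 and Klf6 were no longer lower in the double mutant, at log2 ratios of 0.07 and 0.26. Klf2 (-0.01), Fos (-0.55), Egr1 (-0.86) and Fosb (-0.87) were no longer past 2-fold there, and Nr4a1 was (-2.13).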

How the results depend on the processing

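The counts of 59 higher and 93 lower genes depended on scaling, filter and cells. They were 98 and 27 under TMM scaling, 102 and 25 under median-of-ratios scaling, 519 and 2217 with no filter on low values, 22 and 15 at 50 CPM or more, and 93 and 378 in cells of 10000 to 20000 UMIs. Relative to the median gene 35 genes were lower and 81 higher. Lower genes numbered 152 in cells with no Xist UMI and 33 in double-mutant cells with one, 33 with class-standardised sums and 38 with classes assigned from the Jak2V617F library. All deposited barcodes, the 5 percent mitochondrial limit, cell means, leaving out lineage classes and leaving out the highest doublet scores kept both counts within 1.5 times. Scaling accounts for part of this by construction, since it shifts all genes.

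In cells of 10000 to 20000 UMIs the log2 ratio changed sign for Hist1h2ab (-1.14), Hist1h3b (-1.80), Cish (0.24), Txnip (0.49), Mmrn1 (0.26), Iigp1 (0.41), Irgm2 (0.017), Klf6 (0.26), Procr (0.66), Pim2 (0.27), Slfn5 (1.10), Vldlr (0.093), Ifi44 (0.23), Wfdc17 (0.20) and Ccl4 (0.066). With classes from the Jak2V617F library it did so for Ngp (0.94), Chil3 (0.74) and Car1 (0.16), and in cells without Xist for Tsix (-0.50). The neutrophil-like and erythroid-like clusters were pooled with other small clusters in that weighting, so their shares were not made equal. The mast cell list stood at -0.30 at 50 CPM, over 2 genes. Without thinning, detection was higher in the deeper double-mutant library for Mcl1 (10.6 points), Tmpo (11.5), Ccnd2 (7.86), Cd44 (8.08), Itga4 (5.80), Flt3 (1.30), Kit (3.57), Gcnt2 (1.88) and Runx2 (2.26). The cause was not tested. No paired analysis was possible because each genotype has 1 library. Differences between animals were not measured.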

Other observations

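Globin genes were among the 10 genes whose log2 ratio of double mutant over Jak2V617F was furthest below that of Ikk2CA over control. Hbb-bs, an adult β-globin gene, was at 12.4 CPM in control and 444 CPM in Ikk2CA, but at 69.9 CPM in Jak2V617F cells and 57.0 CPM in double-mutant cells. The α-globin genes Hba-a1 and Hba-a2 held 7.14 and 4.87 CPM in control, 186 and 141 CPM in Ikk2CA, 22.3 and 18.3 CPM in Jak2V617F cells and 25.4 and 22.7 CPM in double-mutant cells. The double-mutant values differed between its Xist and Y cells, at 257 and 8.01 CPM for Hbb-bs, 119 and 2.41 CPM for Hba-a1 and 105 and 2.60 CPM for Hba-a2. Y cells of the Jak2V617F library held 31.5, 10.4 and 8.09 CPM, so among Y cells all 3 genes were lower in the double mutant. Globin copies are near-identical, so how reads were split among them is uncertain.

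Ighg2b, an antibody heavy chain gene, was at 0.706 CPM in Jak2V617F cells and at 36.3 CPM in double-mutant cells. In Xist and Y cells of the double mutant it was at 3.09 and 53.7 CPM. The 8 plasma cell markers summed to 76.2 and 66.8 CPM in the 2 libraries. With all libraries clustered together, 10 Jak2V617F and 2 double-mutant cells were plasma cell-like. How many cells held the Ighg2b UMIs was not counted, so a few cells could hold most of them. The myosin light chain gene Myl10 (67.4 against 107 CPM), the ribonuclease gene Rnaset2b (85.7 against 101 CPM), Wdr89 (146 against 194 CPM) and the microRNA-pathway gene Tnrc6c (68.3 against 66.4 CPM) were among the genes whose ratio was most above that of Ikk2CA over control, Jak2V617F given first. Myl10 was at 359 and 35.7 CPM in Xist and Y cells of the double mutant and at 66.6 CPM in Jak2V617F Y cells, so it was lower among Y cells. In control its Xist and Y cells held 169.6 and 69.7 CPM, and in Ikk2CA 129.6 and 39.9 CPM. Rnaset2b has a near-identical copy and its value is uncertain.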
